A study of Mus musculus with 11 samples.

Results

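The genes described here are interferon-stimulated genes, the genes that a cell switches on when type I or type II interferon binds its receptors. A list of 38 of them was followed across all 11 arrays of the series, each gene by the probe set that carried its symbol and had the highest mean. Of the 38 genes, 35 were measured out of 19938 genes in all. Gbp2 and Isg15 were represented only by probe sets that carry several symbols and were not used, and Ifi44 was not matched in the probe table and is not analysed here.

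Interferon binding activates kinases of the JAK family at the receptor, among them JAK1 and TYK2, which phosphorylate STAT2. Together with IRF9, STAT2 is part of a complex that binds the interferon-stimulated response element (ISRE) in the promoters of target genes. The gamma-activated sequence (GAS) is another element found in promoters that respond to interferon. Many targets detect or destroy viral RNA, and several, among them the sensors of foreign RNA and IRF7, in turn raise the production of interferon. Cultured fibroblasts express the receptors and respond to interferon, and they also produce interferon beta when they sense foreign nucleic acid.

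The cells were mouse embryonic fibroblasts (MEFs) of male 13.5 dpc embryos, F1 hybrids of a homozygous ROSA-rtTA mother (C57Bl6 backcross) and a father of a C57Bl6/129SV intercross that was homozygous for a Nanog-GFP BAC transgene. All groups therefore shared the ROSA-rtTA and Nanog-GFP genotype, in which rtTA switches on a transgene in the presence of doxycycline. All groups were also transfected with a piggyBac transposon (PB-TAC) and the pCyL43 transposase plasmid, and then kept in ES cell medium with doxycycline at 1 ug/mL. The transposons of 8 cultures encoded a polycistronic reprogramming cassette, in which several factors share a transcript (EB-C5, MKOS, OSKM, OKMS, OK+9MS, OKN-HAMS, STEMCCA and WTSI). A further 2 encoded Klf4 by itself (Klf4S and Klf4L), and these 10 cultures were sorted for the mCherry reporter on day 6 of doxycycline. The remaining culture carried lacZ and was harvested on day 2 without a sort. In every comparison with lacZ, transgene, day and sort cannot be told apart. Each construct was measured on 1 array, so the number of arrays limits the precision. Replicates in this design are different constructs of a group, and the p-values measure the spread between constructs, not between repeated cultures.

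Signals are on the log2 scale of RMA, where 1 unit is a 2-fold difference, and a signal is compared between arrays for the same gene only. The array medians lay between 7.188 and 7.269. As for the label of the cells, Col1a1, the main collagen chain of fibroblasts, read between 11.91 and 13.21 on every array. The pan-leukocyte marker Ptprc read 5.59 to 5.79 and the macrophage marker Adgre1 5.37 to 5.45, both under 6, a level that these values alone cannot separate from background. Not all leukocyte markers were this dim, since Laptm5 read 6.85 to 10.92 and Cd68 8.11 to 9.62. Mean signal over 10 fibroblast markers was 10.37 to 11.40 in the cassettes, 11.70 and 11.72 with Klf4 alone, and 10.28 in lacZ.

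Averaged over the 35 genes, the signal was highest in lacZ, at 9.62. It was 9.26 in Klf4S and 9.34 in Klf4L. Among the cassettes it was 9.27 in STEMCCA, 9.04 in MKOS, 8.70 in OK+9MS, 8.52 in OSKM, 8.47 in OKMS, 8.44 in EB-C5, 8.32 in WTSI and 8.31 in OKN-HAMS. STEMCCA thus lay at the level of Klf4 alone, and the other 7 cassettes lay below it. The median over the 35 genes was not highest in lacZ, with 9.45 there against 9.52 in Klf4S and 9.51 in Klf4L, and 9.31 in STEMCCA. The genes differed in where lacZ stood relative to the day 6 arrays. In bulk RNA, fewer responding cells and less RNA per cell cannot be told apart.

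**Figure D1:**
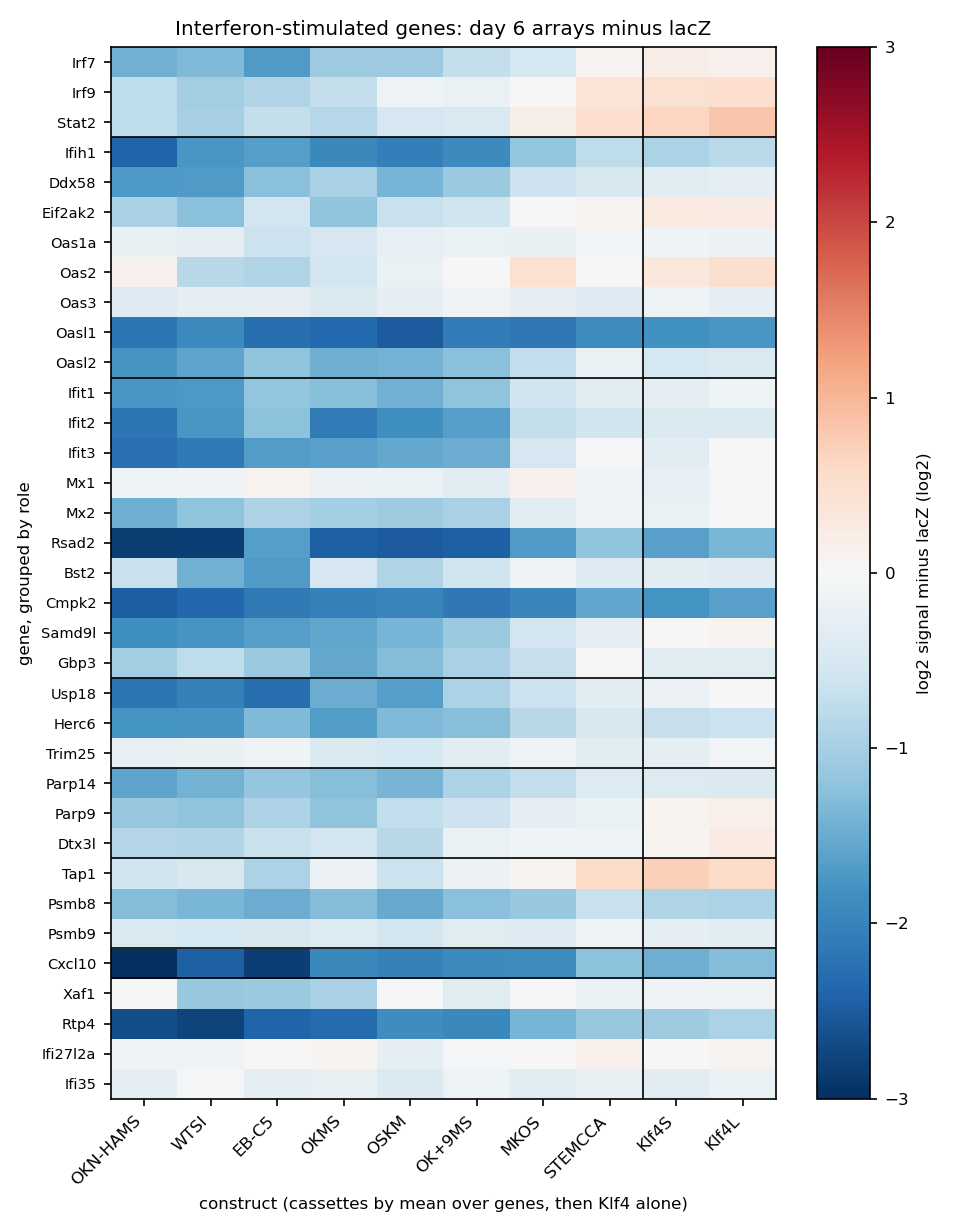
Log2 signal of each of the 35 genes on each day 6 array minus the lacZ array (colour), with genes grouped by role on the vertical axis and constructs on the horizontal axis, cassettes ordered by their mean over the genes and Klf4 alone on the right. Rows such as Oasl1, Rsad2, Cmpk2 and Cxcl10 are below lacZ on every array, whereas Stat2, Irf9 and Tap1 are above lacZ with Klf4 alone.

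Of the 35 genes, 22 read below lacZ on all 10 day 6 arrays, against 14.5% of all genes. At least 1 unit below lacZ on all 10 arrays were 4 of the 35, Oasl1, Cmpk2, Rsad2 and Cxcl10, against 0.301% of all genes. OASL1 is a relative of the oligoadenylate synthetases without their enzymatic activity and restrains translation of Irf7 in mice. CMPK2 is a mitochondrial nucleotide kinase, RSAD2 (viperin) makes a nucleotide analogue that terminates viral RNA chains, and CXCL10 is a chemokine that attracts activated T cells. Rsad2 and Cmpk2 lie side by side on chromosome 12, in opposite directions and with 0 protein-coding genes between them in RefSeq.

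The promoter windows of these 4 genes are shown because they moved furthest from lacZ, with that of Stat2 for contrast, a gene that stood above lacZ with Klf4 alone. Each window runs from 250 bases before to 50 bases after the annotated start, 5′ to 3′ on the gene's strand, and is taken from RefSeq on GRCm38.p6. Capitals mark an ISRE core, searched as GAAANNGAAA on both strands. The windows lie at chr12:26456403-26456702 (minus strand) for Rsad2, chr5:92348840-92349139 (minus strand) for Cxcl10, chr5:114922990-114923289 (plus strand) for Oasl1, chr12:26468965-26469264 (plus strand) for Cmpk2 and chr10:128270248-128270547 (plus strand) for Stat2.
Rsad2: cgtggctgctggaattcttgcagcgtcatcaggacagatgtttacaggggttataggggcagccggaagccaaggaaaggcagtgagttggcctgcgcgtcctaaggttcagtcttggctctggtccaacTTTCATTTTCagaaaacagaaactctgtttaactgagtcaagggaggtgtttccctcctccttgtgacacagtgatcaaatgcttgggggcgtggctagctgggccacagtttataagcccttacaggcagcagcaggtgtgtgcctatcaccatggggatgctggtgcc
Cxcl10: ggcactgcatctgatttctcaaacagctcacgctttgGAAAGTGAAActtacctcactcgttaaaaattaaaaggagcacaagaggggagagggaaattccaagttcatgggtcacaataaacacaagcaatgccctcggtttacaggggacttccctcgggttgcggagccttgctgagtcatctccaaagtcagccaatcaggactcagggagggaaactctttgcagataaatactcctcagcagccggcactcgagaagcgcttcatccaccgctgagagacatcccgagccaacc
Oasl1: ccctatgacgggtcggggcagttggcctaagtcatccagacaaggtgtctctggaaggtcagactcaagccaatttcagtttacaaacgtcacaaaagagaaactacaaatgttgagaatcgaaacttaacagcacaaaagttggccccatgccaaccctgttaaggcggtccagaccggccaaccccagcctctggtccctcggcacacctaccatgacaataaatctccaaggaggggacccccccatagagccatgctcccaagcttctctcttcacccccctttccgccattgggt
Cmpk2: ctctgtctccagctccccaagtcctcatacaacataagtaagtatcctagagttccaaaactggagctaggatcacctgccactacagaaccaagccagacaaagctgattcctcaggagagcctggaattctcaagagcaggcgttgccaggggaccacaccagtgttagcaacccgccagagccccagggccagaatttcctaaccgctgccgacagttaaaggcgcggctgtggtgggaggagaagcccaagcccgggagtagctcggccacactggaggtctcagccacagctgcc
Stat2: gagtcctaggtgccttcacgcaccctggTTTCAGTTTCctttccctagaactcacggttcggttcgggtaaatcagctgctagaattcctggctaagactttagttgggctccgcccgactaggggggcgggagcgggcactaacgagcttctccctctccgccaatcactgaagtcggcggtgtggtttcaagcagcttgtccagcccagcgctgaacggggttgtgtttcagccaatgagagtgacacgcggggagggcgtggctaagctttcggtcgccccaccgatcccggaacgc
The core stands in the windows of Rsad2, Cxcl10 and Stat2, and these letters are absent from the windows of Oasl1 and Cmpk2. Of the 38 genes, 30 had an entry in the promoter table, with 33 windows. The core was found in 14 of the 33 windows (42.4%), among them those of Ifit1, Ifit3, Ifih1, Ddx58, Eif2ak2, Bst2 and the unmeasured Isg15 and Gbp2, against 3.44% of all 32851 windows in the table. The GAS motif, searched as TTCNNNGAA (its own reverse complement), was found in 6 windows (18.2%) against 8.3% of all windows, and in 3 genes, Bst2, Eif2ak2 and Oas1a, it stood in the same window as an ISRE core, with 3 bases shared by both matches in Bst2 and 0 in the other genes. The windows of Tap1 and Psmb9, which are transcribed in opposite directions, share 275 bases. The core was found for 9 of the 19 measured genes with a window that lay below lacZ on all day 6 arrays, and for 3 of the 8 other measured genes with a window.

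Oasl1 read 12.03 in lacZ, 10.22 in Klf4S and 10.27 in Klf4L, and from 9.53 through a median of 9.88 to 10.15 in the cassettes. The 3 groups did not overlap, and the step from lacZ to the day 6 arrays was far wider than the spread among them. Oasl1 was 4.47-fold lower in the cassettes than in lacZ (-2.16 ± 0.19 SE, n = 8 against n = 1, limma adjusted p = 0.0009297). It was 3.44-fold lower with Klf4 alone (-1.78 ± 0.22, n = 2 against n = 1, limma adjusted p = 0.008872). Cmpk2 read 10.74 in lacZ, 8.96 in Klf4S and 9.12 in Klf4L, and 8.28, 8.66 and 9.19 as the lowest, median and highest cassette. Here STEMCCA, the highest cassette, exceeded both Klf4 arrays, while lacZ stood apart from all. The difference was -2.08 ± 0.26 for the cassettes (limma adjusted p = 0.005068) and -1.70 ± 0.30 for Klf4 alone (limma adjusted p = 0.03788). Both comparisons share the lacZ array, which gives no spread of its own. The SEs come from a fit over all arrays. Most of its residual degrees of freedom come from the 8 cassettes, also for Klf4 alone minus lacZ.

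Psmb8, a catalytic subunit of the immunoproteasome that cuts peptides for presentation on MHC class I, read 8.46 in lacZ, 7.57 in Klf4S, 7.52 in Klf4L and 6.95 to 7.80 in the cassettes, with a median of 7.16. It was lower in the cassettes by -1.26 ± 0.25 (limma adjusted p = 0.03834). That call was lost when any array other than STEMCCA and EB-C5 was left out, lacZ aside, and with the compared arrays alone (limma adjusted p from 0.05264 to 0.07549). Klf4 alone minus lacZ did not pass (-0.92, limma adjusted p = 0.2245). In all, 3 of the 35 genes fell in the cassettes against lacZ, Oasl1, Cmpk2 and Psmb8, against 1.59% of all genes. With Klf4 alone, 2 of the 35 fell, Oasl1 and Cmpk2, against 0.476% of all genes, and 0 did without Klf4S (limma adjusted p = 0.06256 and 0.1967), without Klf4L (0.05792 and 0.1627) or with the compared arrays alone (0.05281 for both). Oasl1 was the 1 gene called without OSKM, OKMS, OK+9MS or EB-C5. By the limma test 0 of the 35 rose against lacZ in either group. Few genes rose at all, so this does not set the list apart. Of 19938 genes, 409 were called in the cassettes, 22.2% of them higher, and 149 with Klf4 alone, 36.2% of them higher. At an unadjusted p under 0.05, 16 of the 35 were lower in the cassettes and 4 with Klf4 alone, against 10.3% and 6.32% of all genes. At that cut 0 of the 35 were higher, and the share of all genes that were higher was not computed.

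Rsad2 read 11.56 in lacZ, 9.92 in Klf4S, 10.19 in Klf4L, and 8.71, 9.10 and 10.34 as the lowest, median and highest cassette. Cxcl10 read 13.35 in lacZ, 11.90 in Klf4S and 12.06 in Klf4L, and the cassettes ran from 10.16 in OKN-HAMS through a median of 11.37 to 12.13 in STEMCCA. Rtp4, a chaperone that carries receptors to the cell surface, read 11.25 in lacZ, 10.17 and 10.30 with Klf4 alone and 8.46 to 10.11 in the cassettes, with a median of 9.13. In all 3 genes lacZ was highest and the cassettes were spread over more than 1 unit. Their differences between cassettes and lacZ were close in size to that of Oasl1, at -2.21 ± 0.55, -2.18 ± 0.56 and -2.06 ± 0.53, yet did not pass the test over all genes (limma adjusted p = 0.08165, 0.09072 and 0.09291). Ifih1, which encodes the RNA sensor MDA5, read 11.29 in lacZ, 10.35 and 10.47 with Klf4 alone, and 8.88 to 10.52 in the cassettes (-1.71 against lacZ, limma adjusted p = 0.1111). STEMCCA was the highest cassette for all 4 of these genes. Without it, 11 of the 35 genes fell against lacZ, against 2.64% of all genes, and Rsad2 (-2.35 ± 0.44), Cxcl10 (-2.32 ± 0.47), Rtp4 (-2.19 ± 0.44), Ifih1 (-1.84 ± 0.34), Herc6, Oasl2, Parp14 and Psmb9 joined the 3 named above. STEMCCA was singled out after its values were seen. It was the highest cassette for each of the added genes, so that leaving it out had to lower their cassette means. The added calls therefore describe STEMCCA and are no separate support for a difference from lacZ.

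In the other direction, lacZ lay between the lowest and the highest day 6 array for 13 of the 35 genes, against 76.7% of all genes. Both Klf4 arrays read above lacZ for 9 of the 35 (25.7%), a smaller share than the 38.7% of all genes, so this does not set the list apart. The 9 included all 3 transcription factors of the list, Irf7, Irf9 and Stat2, and the RNA-activated kinase Eif2ak2 (PKR), Oas2, Samd9l, Parp9, Dtx3l and Tap1, which encodes a subunit of the peptide transporter of the MHC class I pathway. Stat2 read 9.62 in lacZ, 10.27 in Klf4S and 10.45 in Klf4L, with cassettes from 8.61 through a median of 9.01 to 10.12. Tap1 read 8.93 in lacZ, 9.65 in Klf4S, 9.51 in Klf4L and 7.99 to 9.48 in the cassettes, with a median of 8.60. Irf9 read 9.99 in lacZ, 10.45 and 10.49 with Klf4 alone, and 8.95 to 10.41 in the cassettes, with a median of 9.53. For these 3 genes lacZ stood inside the range of the cassettes and below both Klf4 arrays. The Klf4 alone minus lacZ differences of 0.74 for Stat2 and 0.65 for Tap1 did not pass the test (limma adjusted p = 0.7339 and 0.7403). The median difference over the 35 genes was -0.92 for the cassettes minus lacZ and -0.21 for Klf4 alone minus lacZ, against -0.01 and -0.0001 over all genes.

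**Figure D2:**
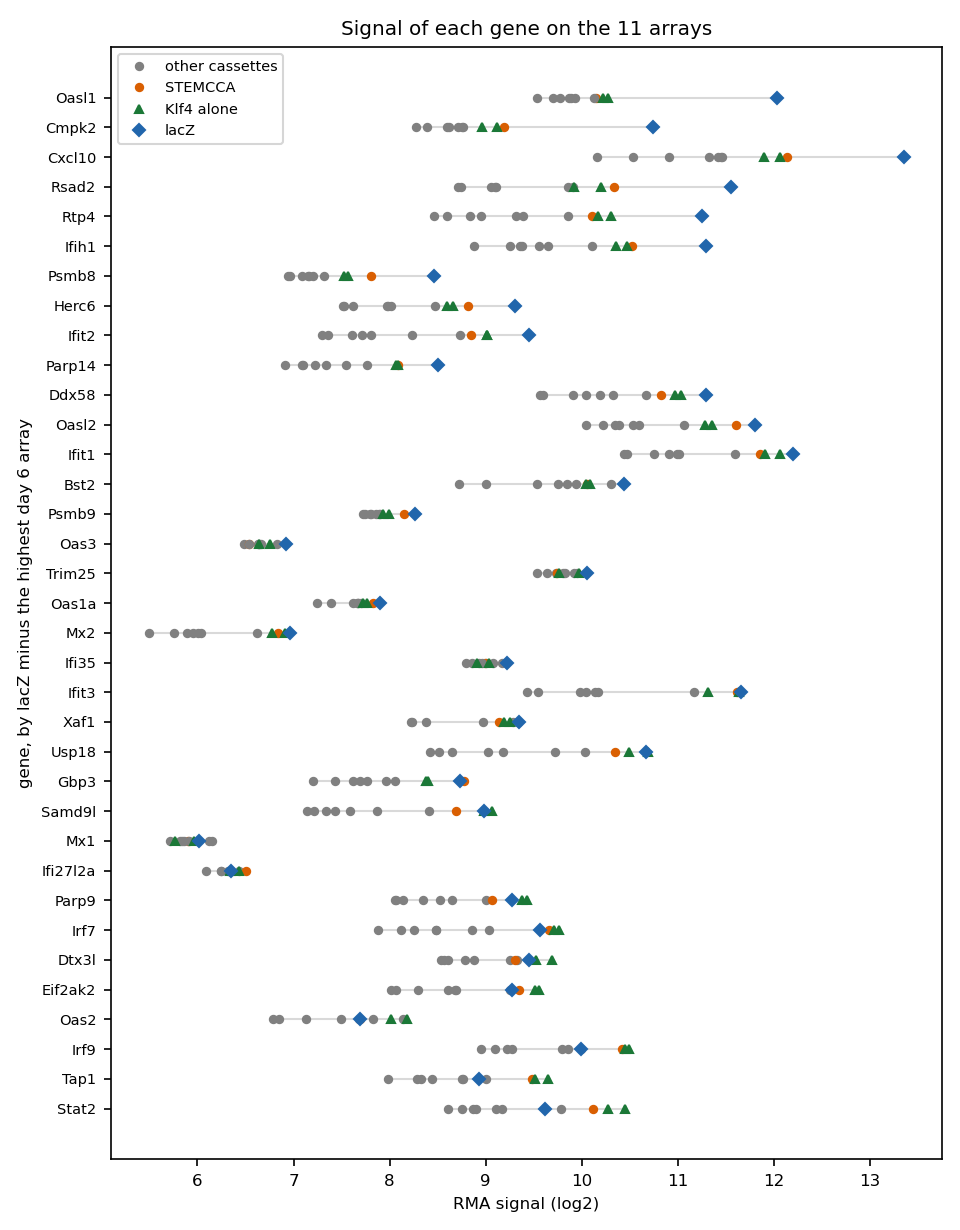
RMA signal (log2, horizontal axis) of each of the 35 genes on the 11 arrays, with genes ordered by lacZ minus the highest day 6 array. At the top lacZ stands to the right of all day 6 arrays (Oasl1 12.03 in lacZ against at most 10.27), and at the bottom both Klf4 arrays stand to the right of lacZ (Stat2 10.27 and 10.45 against 9.62). Grey points are the 7 cassettes other than STEMCCA.

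The comparison of the cassettes with Klf4 alone was made within day 6 and after the same sort. Here 34 of the 35 genes had a negative difference, against 55.3% of all genes, and the median was -0.71 against -0.02 over all genes. Samd9l, an interferon-induced inhibitor of poxvirus replication, was the only gene of the list that passed the test over all genes, 1 of 35 against 8.12% of all genes. It read 8.98 in Klf4S and 9.07 in Klf4L, and the cassettes ran from 7.14 in OKN-HAMS through a median of 7.51 to 8.69 in STEMCCA, so that the groups did not overlap. It was 2.49-fold lower in the cassettes (-1.32 ± 0.39, n = 8 against n = 2, limma adjusted p = 0.04932), and the call was lost when any of the day 6 arrays other than MKOS and STEMCCA was left out. At an unadjusted p under 0.05, 18 of the 35 were lower, against 18.6% of all genes.

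The other genes did not pass the test. Nearest the threshold were Parp9 and Stat2, followed by Dtx3l, Tap1, Irf7 and Ifit1 (limma adjusted p from 0.07381 to 0.08216). Parp9, an ADP-ribosylating partner of the ubiquitin ligase DTX3L, differed by -0.92 (limma adjusted p = 0.05051) and Stat2 by -1.20 (limma adjusted p = 0.0522). Irf7, the transcription factor that amplifies interferon production, read 9.76 in Klf4S and 9.71 in Klf4L against 7.88 in EB-C5, a cassette median of 8.48 and 9.65 in STEMCCA (-1.14, limma adjusted p = 0.07633). Usp18, the protease that removes ISG15 from proteins and blocks the interferon receptor, read 10.49 and 10.69 with Klf4 alone, and its cassettes ran from 8.42 in EB-C5 through a median of 9.10 to 10.35 in STEMCCA. Its difference of -1.35 was the largest of the list and did not pass (limma adjusted p = 0.09329). Ifit3, of the family that binds foreign RNA, read 11.31 and 11.64 with Klf4 alone, and 9.43, 10.09 and 11.62 as the lowest, median and highest cassette (-1.21, limma adjusted p = 0.1432).

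Both Klf4 arrays read above all 8 cassettes for 14 of the 35 genes, against 17.8% of all genes. These were Irf7, Irf9, Stat2, Ddx58 (the RNA sensor RIG-I), Eif2ak2, Oasl1, Ifit1, Ifit2, Samd9l, Usp18, Parp9, Dtx3l, Tap1 and Rtp4. Without STEMCCA, which was singled out after its values were seen, 21 of the 35 were lower in the cassettes, against 11.9% of all genes. Among them were Stat2 (-1.33 ± 0.26, limma adjusted p = 0.0117), Samd9l (-1.46 ± 0.30), Irf7 (-1.29 ± 0.27), Tap1 (-1.07 ± 0.24) and Usp18 (-1.51 ± 0.41). STEMCCA was the highest cassette for 27 of the 35 genes, so that leaving it out had to lower the cassette means of those genes. This count is therefore a description of STEMCCA and no separate support for a difference from Klf4 alone. Without MKOS 4 were lower, and without any other array 0 (limma, smallest adjusted p of the list from 0.06819 to 0.2504). At an unadjusted p under 0.05 the fits without 1 of those cassettes gave 16 or 17 lower genes, the fit without Klf4S 4 and the fit without Klf4L 2. At the other end, Ifi35, Mx1, Oas3, Psmb9, Trim25 and Ifi27l2a ranged over less than 0.5 across the 10 day 6 arrays, while 25 genes ranged over at least 1. Mx1, an antiviral GTPase, read between 5.71 and 6.15 on the 11 arrays and Mx2 between 5.49 and 6.97, so that some of their arrays cannot be told from background.

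**Figure D3:**
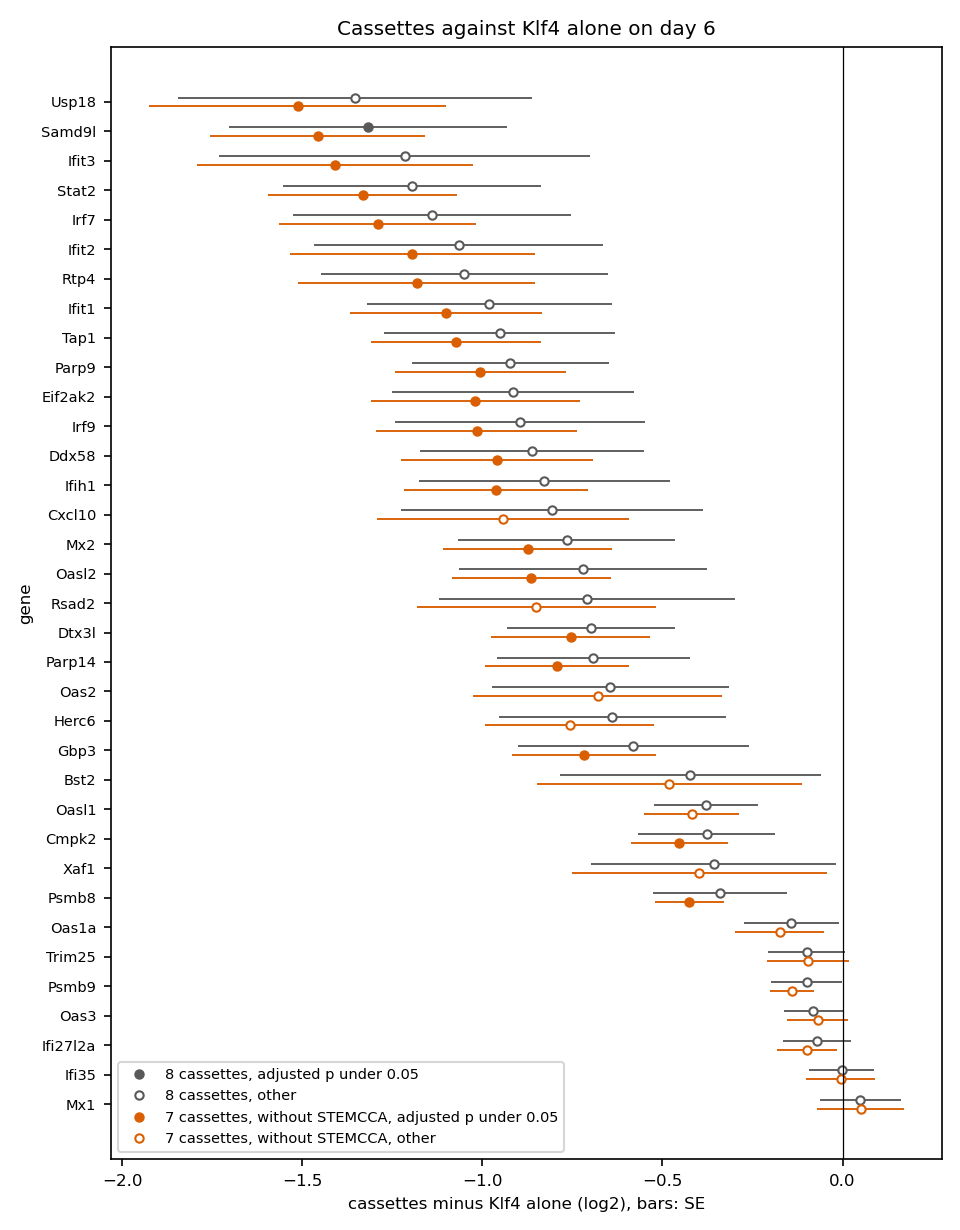
Difference of the cassettes from Klf4 alone (log2, horizontal axis, bars are the SE of the limma fit) for each of the 35 genes, with all 8 cassettes (grey) and without STEMCCA (orange); filled points have an adjusted p under 0.05. Leaving out STEMCCA, which was chosen after its values were seen, moves 32 of the 35 points left and narrows the bars of 28. The number of filled points rises from 1 to 21.

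The markers of fibroblasts followed a similar order on day 6. The mean of the 10 fibroblast markers was 11.72 in Klf4S, 11.70 in Klf4L, 11.40 in STEMCCA and 11.29 in MKOS, against 10.37 to 10.99 in the other 6 cassettes. It was lowest in lacZ, at 10.28, where the mean over the interferon-stimulated genes, though not their median, was highest. Col1a1, Col3a1, Dcn and Lum had their lowest signal in lacZ, and the remaining markers did not. Thy1 read 11.80 in lacZ, above every cassette (at most 11.66). Of the 10 markers, 2 fell in the cassettes against Klf4 alone, where 8.12% of all genes did. They were the collagens Col1a2 (-0.99 ± 0.29) and Col3a1 (-1.19 ± 0.34). In that comparison 7 of the 10 were lower at an unadjusted p under 0.05, where 18.6% of all genes were. The median difference over the 10 markers was -0.9999, against -0.7083 over the measured interferon-stimulated genes of the list. Keratinocyte and epithelial markers averaged 7.30 in lacZ, 8.56 and 8.73 with Klf4 alone, and 7.47 to 10.45 in the cassettes, with 7.85 in STEMCCA. The 11 leukocyte markers averaged 6.46 to 6.93 in the cassettes, 6.44 and 6.42 with Klf4 alone and 6.37 in lacZ. Among them Ptprc and Adgre1 were under 6 on every array, Laptm5, a lysosomal protein of leukocytes, read 7.38 to 10.92 in the cassettes against 6.85 to 6.92 on the other arrays, and Cd68 read 8.11 to 9.62 over all arrays. The 6 endothelial markers averaged 6.73 to 6.95 in the cassettes, 6.62 and 6.56 with Klf4 alone and 6.57 in lacZ. The part of the fibroblast, epithelial and other markers in the differences of the interferon-stimulated genes was not tested.

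**Figure D4:**
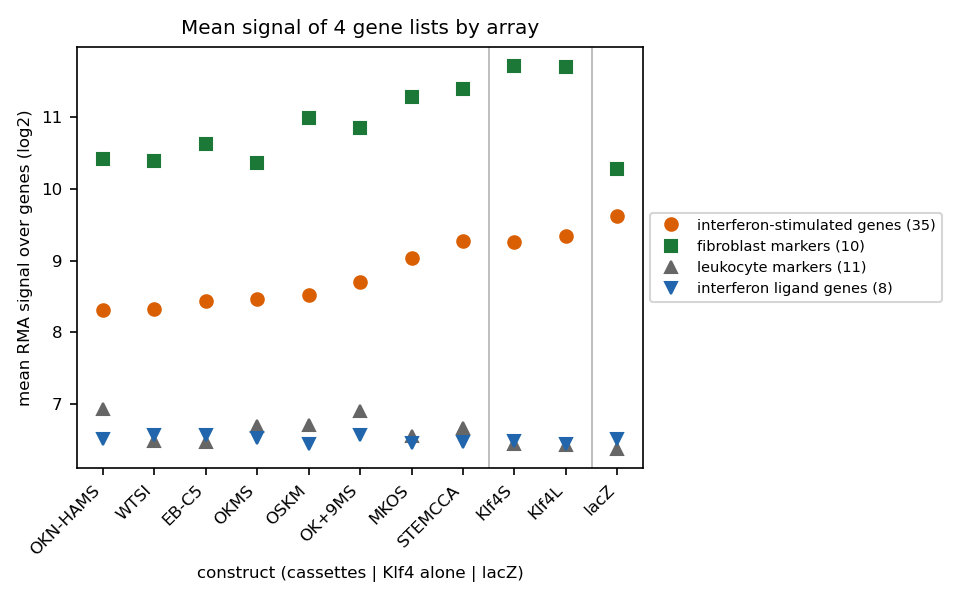
Mean RMA signal (log2, vertical axis) over the 35 interferon-stimulated genes, 10 fibroblast markers, 11 leukocyte markers and 8 interferon ligand genes on each of the 11 arrays, cassettes ordered by the mean of the interferon-stimulated genes. On day 6 the first pair of lists is highest in STEMCCA, MKOS and Klf4 alone; in lacZ the fibroblast mean is at its lowest (10.28) and the interferon-stimulated mean at its highest (9.62), while the ligand genes stay at 6.44 to 6.57.

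The cassettes themselves differed more in these genes than over all genes, from which dim genes were not filtered out. Genes of like signal were not compared. The SD over the 8 cassettes had a median of 0.473 over the 35 genes and 0.1593 over all genes. STEMCCA was the highest cassette for 27 of the 35, against 14.7% of all genes, and MKOS for 5, Oas2, Mx1, Bst2, Dtx3l and Xaf1, against 10.7%. For the remaining genes the highest cassette was OK+9MS (Oas3, 6.82), EB-C5 (Trim25, 9.95) or WTSI (Ifi35, 9.17). STEMCCA exceeded the median of the other 7 cassettes by at least 1 for 13 of the 35, against 0.973% of all genes. The 13 were Irf7, Irf9, Stat2, Ifih1, Oasl2, Ifit2, Ifit3, Rsad2, Samd9l, Gbp3, Usp18, Tap1 and Rtp4. Over the 35 genes the median distance from the other 7 cassettes was 0.81 for STEMCCA, 0.55 for MKOS, 0.10 for OK+9MS, -0.11 for OKMS, -0.12 for EB-C5, -0.14 for OSKM, -0.32 for WTSI and -0.39 for OKN-HAMS. With 1 array for each construct these distances have no test.

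The lowest cassette was less uniform than the highest. OKN-HAMS was lowest for 13 of the 35, against 14.8% of all genes, among them Ifih1, Ddx58, Oasl2, Ifit1, Ifit2, Ifit3, Rsad2, Cmpk2 and Cxcl10. WTSI was lowest for 7, against 10.3%, among them Irf9, Stat2 and Eif2ak2. EB-C5 was lowest for 6, against 12.4%, among them Irf7, Usp18, Bst2 and Tap1. OSKM was also lowest for 6, Oasl1, Trim25, Psmb8, Psmb9, Ifi27l2a and Ifi35, against 14.3%. OKMS was lowest for Oas3 and Gbp3, 2 of the 35 against 11.1%, and OK+9MS for Mx1, 1 of the 35 against 6.82%. Ifit1 had STEMCCA and MKOS at the top and OKN-HAMS at the bottom, as the mean over the 35 genes did, with 11.85 in STEMCCA, 11.60 in MKOS, 11.01 in EB-C5, 10.99 in OK+9MS, 10.91 in OKMS, 10.75 in OSKM, 10.46 in WTSI and 10.44 in OKN-HAMS, beside 11.91 and 12.06 with Klf4 alone and 12.19 in lacZ. Bst2 (tetherin), which holds budding virus at the cell surface, had another order, with 10.30 in MKOS, 10.05 in STEMCCA, 9.75 in OKN-HAMS and 8.73 in EB-C5. Xaf1, a partner of the apoptosis inhibitor XIAP, read 9.33 in OKN-HAMS, 9.34 in MKOS and 9.29 in OSKM, against 8.22 in WTSI and 8.23 in EB-C5.

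As a description, each gene was correlated with the mean centred profile of the other members. Over the 10 day 6 arrays, 25 of the 35 had an r of at least 0.8, against 9.92% of all genes, with Samd9l (0.99), Ifit3 (0.98) and Stat2 (0.98) at the top and Oas3 (0.20), Mx1 (0.05) and Ifi35 (-0.13) at the bottom. Over the 8 cassettes alone the count was 22, against 4.72% of all genes. Without STEMCCA and MKOS, the cassettes farthest from the median of the profile, the count was 7 on 6 arrays, against 3.15%, namely Ifit3, Samd9l, Usp18, Parp14, Parp9, Dtx3l and Rtp4. Several genes that no longer reached 0.8 lay just under it, such as Stat2 (0.79), Irf9 (0.77), Herc6 (0.77) and Irf7 (0.74), whereas Ifih1 (0.12), Psmb8 (0.16) and Ifit2 (0.20) lay far under it. Each point is 1 culture on 1 array, and the fibroblast markers had a similar order. Outside the list, the genes most like the profile over the 10 day 6 arrays, among 4718 with a range of at least 1, were Runx1t1, Plekha2, Lama4, Hoxa11, Helz2, Sfxn5, Agrn, Npr2, Ifi27 and Sulf1, with r from 0.97 (Sulf1) to 0.98 (Runx1t1). Of these 10, Helz2 belongs to the list of other interferon-stimulated genes, and 4 were also among the 10 most like the median profile. Lama4, a laminin chain, read 10.85 and 10.89 with Klf4 alone, 9.60 to 10.70 in the cassettes and 8.50 in lacZ. It thus had the order of the interferon-stimulated genes on day 6 and the opposite place of lacZ. Lama4 was the only gene of these 10 with lacZ below every day 6 array. In Plekha2 (9.54 in lacZ) and Sfxn5 (9.08 in lacZ) lacZ was the highest array, and in the remaining genes it lay within the day 6 range.

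The labels name a 9-residue extension of Klf4 that separates OK+9MS from OKMS and Klf4L from Klf4S, and the form of Klf4 in the other cassettes is not given in the labels used here. OK+9MS read above OKMS for 30 of the 35 genes, against 51.9% of all genes, with a median difference of 0.23 against 0.007 over all genes. It was at least 0.5 higher for 7 of the 35, against 7.47% of all genes, Eif2ak2 (8.68 against 8.07), Xaf1 (8.98 against 8.38), Parp9 (8.65 against 8.07), Gbp3 (7.76 against 7.21), Oas2 (7.68 against 7.13), Usp18 (9.72 against 9.17) and Irf9 (9.79 against 9.28). Ddx58 (10.18 against 10.33), Mx1, Cmpk2, Ifi27l2a and Bst2 read lower in OK+9MS. Klf4L read above Klf4S for 24 of the 35, against 41.2% of all genes, with a median difference of 0.07 against -0.02. The Klf4 arrays were at least 0.5 apart for 0 of the 35, against 0.271% of all genes, and the largest difference was 0.33 for Ifit3. Each pair is 1 array against another, with no test, and the marker means also differed in the cassette pair. Fibroblast markers averaged 10.85 in OK+9MS and 10.37 in OKMS, and keratinocyte and epithelial markers 10.45 and 8.78. The part of these markers in the difference was not tested.

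**Figure D5:**
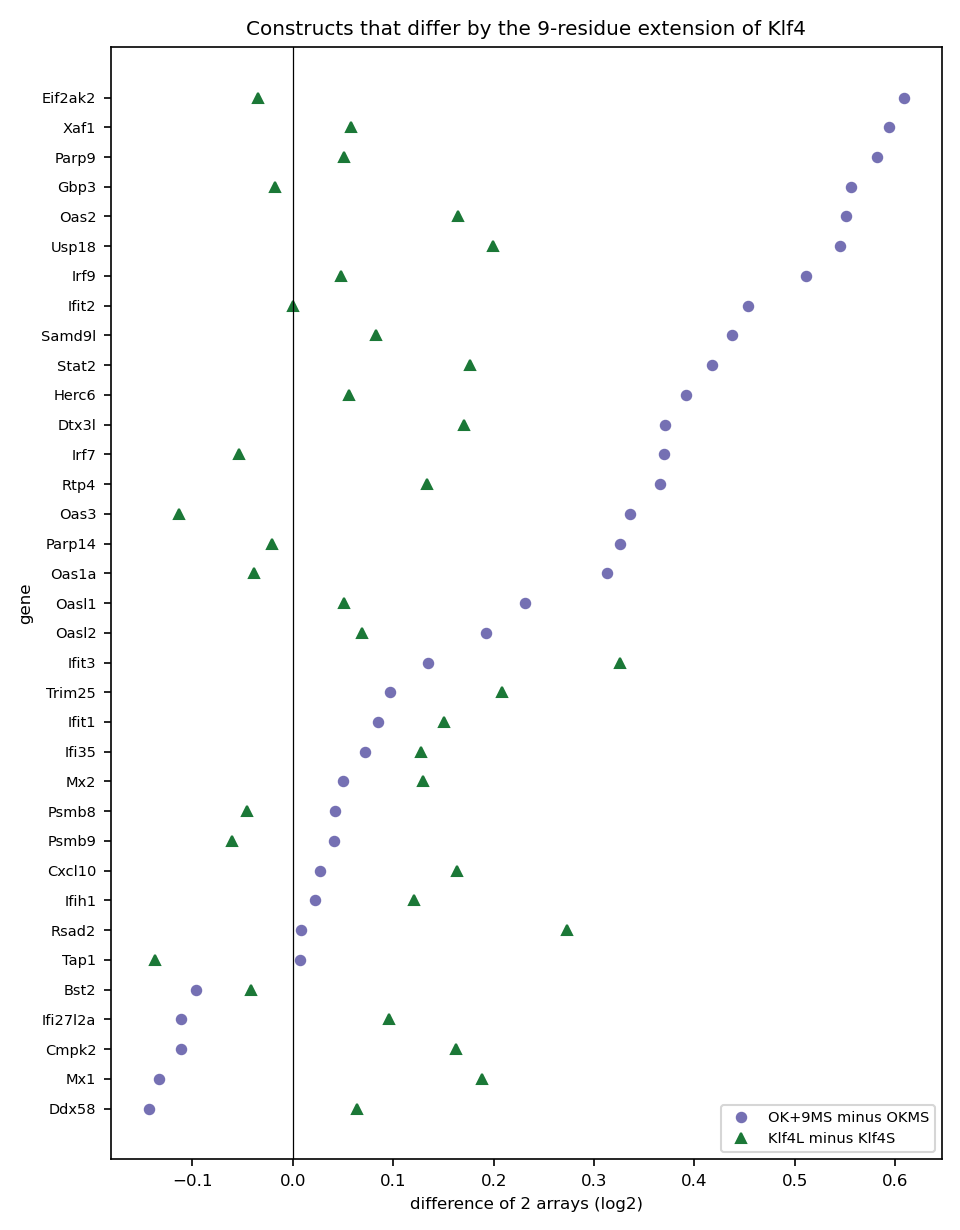
Difference of OK+9MS minus OKMS (circles) and of Klf4L minus Klf4S (triangles) on the log2 scale (horizontal axis) for each of the 35 genes, 1 array against another. The circles reach 0.61 for Eif2ak2 and lie right of 0 for 30 genes; the triangles stay between -0.14 and 0.33.

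The rest of the pathway was read from lists of genes by function. The mean signal over 8 measured interferon genes stayed between 6.44 and 6.57 on all 11 arrays. Ifna5 read 7.81 to 8.14 and Ifnl2 7.94 to 8.29, and these values alone do not show whether either gene was expressed. In each comparison 0 of the 8 passed the limma test. At an unadjusted p under 0.05, 0 differed between cassettes and Klf4 alone and 1 was lower in each comparison with lacZ. Ifnb1, which encodes interferon beta, read 5.69 to 5.88 on the day 6 arrays and 6.02 in lacZ, at the edge of background. Of 10 receptor and JAK-STAT genes, 2 fell in the cassettes against Klf4 alone, the interferon gamma receptor chain Ifngr1 (-0.92 ± 0.26) and the kinase Jak1 (-0.62 ± 0.16), where 8.12% of all genes were lower. At an unadjusted p under 0.05, 6 of the 10 were lower there, where 18.6% of all genes were. Against lacZ 0 of the 10 passed in either comparison, also at an unadjusted p under 0.05. The receptor chain Ifnar2 read 11.16 and 11.25 with Klf4 alone, 11.12 in lacZ and 10.05 to 10.93 in the cassettes. Of 10 inhibitors, 3 were lower in the cassettes than with Klf4 alone, against 8.12% of all genes, the phosphatase Ptpn11 (-0.51), Nlrc3 (-0.39) and Socs1 (-0.35). In the cassettes against lacZ 2 of the 10 were lower, against 1.59% of all genes, the ubiquitin-editing enzyme Tnfaip3 (-1.33) and Nlrc3 (-0.79).

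Among 19 genes of nucleic acid sensing, Aim2, a sensor of cytosolic DNA, rose in the cassettes against Klf4 alone by 2.69 ± 0.57, from 5.74 to 8.43. This was opposite to the listed genes, and since 5.74 cannot be told from background the difference is a lower bound in size. The kinase Ikbke (-0.78) and the RNA-editing enzyme Adar (-0.55) were lower, 2 of the 19 against 8.12% of all genes. Of the 2885 genes called in that comparison, 43.9% were higher in the cassettes. Against lacZ, the transcription factors Irf1 (-1.23 ± 0.26) and Irf5 (-1.12 ± 0.18) fell in the cassettes, 2 of the 19 against 1.59% of all genes. Irf1 read 9.48 in lacZ, 8.77 and 8.97 with Klf4 alone and at most 8.75 in the cassettes, so that the groups did not overlap. Of 46 other interferon-stimulated genes measured, the cytidine deaminase Apobec3 rose in the cassettes against Klf4 alone (1.18 ± 0.21). Slfn2 (-0.74), Parp10 (-0.56) and Trim34a (-0.39) fell, 3 of the 46 against 8.12% of all genes. Slfn9 fell against lacZ in the cassettes (-1.64 ± 0.21) and with Klf4 alone (-1.59 ± 0.25). It was the 1 gene of that list to pass there, where 1.59% and 0.476% of all genes were lower. The median of that list was -0.40 in the cassettes minus Klf4 alone, -0.51 in the cassettes minus lacZ and -0.12 in Klf4 alone minus lacZ.

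Of 11 MHC class I and antigen processing genes, Tap2, the partner of Tap1, was lower in the cassettes than with Klf4 alone (-0.65 ± 0.14), and the proteasome activator subunit Psme2 was lower than in lacZ (-1.19 ± 0.20). Each was the 1 gene of the 11 called there, where 8.12% and 1.59% of all genes were lower. Of 6 MHC class II genes, H2-DMa was lower in the cassettes than with Klf4 alone (-0.77 ± 0.21), 1 of the 6 against 8.12% of all genes. Of 19 NF-kB and inflammatory genes, 4 fell in the cassettes against lacZ, where 1.59% of all genes did, and 0 passed in the other 2 comparisons. The 4 were the cytokine Il6 (-2.03 ± 0.43), the chemokine Ccl2 (-1.61 ± 0.20), the NF-kB inhibitor Nfkbia (-1.16 ± 0.20) and the adhesion molecule Icam1 (-0.59 ± 0.11). At an unadjusted p under 0.05, 7 of the 19 were lower in the cassettes than with Klf4 alone, where 18.6% of all genes were. In the cassettes against lacZ 9 were lower and 0 higher, where 10.3% of all genes were lower. With Klf4 alone against lacZ 5 were lower and 1 higher, where 6.32% of all genes were lower. Il6 read 7.71 in lacZ, 5.71 and 6.15 with Klf4 alone and 5.18 to 6.64 in the cassettes, whose mean of 5.67 cannot be told from background, so its difference is a lower bound in size and the SE does not cover that limit. Ccl2 read 12.23 in lacZ, 11.05 and 11.23 with Klf4 alone and 10.29 to 11.00 in the cassettes. Both had their highest signal in lacZ, as Oasl1, Cmpk2, Rsad2 and Cxcl10 did.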

How the data were processed

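Expression of 11 MEF cultures was measured on 1 Affymetrix mouse gene array each. Per the submitters' processing notes the authors made the deposited log2 values with RMA; its version and the genome build are not given in the sources used here. RMA can understate large differences. Of 28856 probe sets, 21789 carried 1 symbol, 1621 several and 5446 none. Only those with 1 symbol were used, with the highest mean for the 999 genes that had more than 1, which left 19938 genes, without a filter on dim ones.

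Differences between cassettes (8 arrays), Klf4 alone (2) and lacZ (1) were fitted over all genes and all arrays with limma 3.58.1 in R 4.3.3 (8 residual degrees of freedom, Benjamini-Hochberg adjustment, calls at an adjusted p under 0.05); lacZ was assumed to vary like the others. The fit was tested on simulated data. Alternatives were other scalings, a filter on dim genes, the mean of a gene's probe sets, a trended prior, the compared groups alone and leaving out each array. Members and gene lists were chosen with earlier results of these data known. All members, up to 4 called genes of each list with the largest differences and the 10 genes most like the members' profile were named; other markers and pathway genes were added after their values were seen. Promoters and gene names came from RefSeq (GRCm38.p6).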

Additional observations from a re-analysis of the deposited data

Results flagged for a closer look

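Among the 8 cassettes, STEMCCA stood apart from the others for 2 immunoproteasome subunits, by a gap to the nearest array that was large for the range of the group (Dixon's criterion, critical ratio 0.526 for 8 samples). Psmb8 read 7.80 in STEMCCA against a cassette median of 7.16, with a gap of 0.57 of the range. Psmb9 read 8.15 in STEMCCA against a median of 7.84, with a gap of 0.582 of the range. All 35 genes were tested, and chance flags about 1 in 20 groups.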

How the results depend on the processing

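In all, 17 alternatives were run. The medians over the 35 genes kept their sign in each that recomputed them, and the count below lacZ on all day 6 arrays, 22, ran from 18 (genes at or above the median level) to 24 (arrays centred on their medians). Of 95 values of called genes recomputed, 27 lost their call and 0 reversed. The count of genes lower in the cassettes than with Klf4 alone was 1 and became 3 with each array centred on its median, 2 with quantile normalization repeated, 7 among genes at or above the median level and 3 with a trended prior, and ran from 0 to 21 when arrays were left out in turn, with 21 without STEMCCA and 4 without MKOS. Against lacZ it was 3 for the cassettes, from 2 to 11 with arrays left out (11 without STEMCCA), and 2 for Klf4 alone, from 0 to 3 with arrays left out (0 without Klf4S or Klf4L) and 0 with the compared arrays alone, a fit with fewer samples. Calls lost in some alternatives were Samd9l (adjusted p 0.06819 to 0.2582 where lost), Psmb8 against lacZ (0.05264 to 0.07549), Cmpk2 (0.05281 to 0.1967) and Oasl1 (0.05281 to 0.06256) with Klf4 alone; the cause was not tested. The lone lacZ array could not be left out. Over all genes, the calls between cassettes and Klf4 alone numbered 2885, and 104 and 92 without Klf4S and Klf4L. Against lacZ they numbered 409 for the cassettes (184 to 734 with arrays left out, 186 among genes at or above the median level, 184 with the compared arrays alone) and 149 for Klf4 alone (36 to 268, 77 and 0). No paired analysis was possible because each construct was measured once and the replicate numbers only name constructs.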
